A study of Triticum turgidum subsp. durum with 20 samples.

Results

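The 200 most stable genes of the early wheat inflorescence transcriptome are described here. They were chosen from the measured values of all 20 libraries. Counts were divided by the library total to give counts per 1000000 counts (CPM), and among the high-confidence gene models of the A and B genomes and of the unanchored scaffolds with a mean of at least 20 CPM, the 200 with the lowest standard deviation (SD) of log2(CPM + 0.5) over the 20 libraries were taken. Of 190381 gene models on A, B and unanchored sequence, 116701 were low-confidence models and were left out, 73680 remained and 11095 of these had at least 20 CPM. The spread of the 200 members over the 20 libraries was therefore set by the choice, and is given below as a description without a test.

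RNA was sequenced from apical meristems of Kronos, a tetraploid durum wheat (genomes AABB), at Waddington stages W1 and W2, then W3.0, W3.25 as well as W3.5, in 4 replicate libraries per stage. Kronos is a spring wheat through a deletion in intron 1 of VRN-A1 and carries Ppd-A1a, an allele with reduced sensitivity to photoperiod, so all 5 stages share both alleles. Plants grew in chambers with 16 h of light at 23 °C and 8 h of dark at 17 °C, and every library was a pool of about 20 apices at W1 and W2 or about 12 apices later. The study describes W1 as vegetative, W3.25 as the lemma primordium stage and W3.5 as terminal spikelet, but names W2 and W3.0 differently in different places (double ridge or early double ridge for W2, glume primordium or double ridge for W3.0), so the Waddington numbers are used here.

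A gene with an even level across tissues and stages can serve as a reference in quantitative PCR, where the transcript of interest is expressed relative to it. Reference genes are often drawn from basic functions such as translation, protein turnover, the cytoskeleton and RNA processing, and each has to be checked in the tissue in use, because such functions also follow cell division and growth. Sequencing gives only relative levels, so a stable gene is stable relative to whatever the libraries are scaled to, such as the total of all reads or a typical gene. The shoot apex changes from a leaf-producing to a spikelet-producing meristem over these stages, and RNA from whole apices cannot tell a change in the number of cells that express a gene from a change in RNA per cell. The files hold gene identifiers and positions without names, and 0 of the 200 members matched the RefSeq table of durum wheat (assembly Svevo.v1), so the members are given by identifier with no function.

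Library totals ranged from 22229388 to 29655553 counts. The members held between 1.76% and 1.80% of the counts of every library. Genes of known behaviour in the apex are given for scale only, since the choice gives every other gene with at least 20 CPM a higher SD than the members. AP1-A3 (TraesCS2A02G261200), a MADS-box gene of floral meristem identity, ranged from 0.627 to 90.1 CPM. SVP-B2 (TraesCS7B02G080300), of the SVP subclade of MADS-box genes that the study links to early inflorescence development, ranged from 16.2 to 101.8 CPM. Their SDs of log2(CPM + 0.5) were 2.27 and 0.915. Stem cell genes were low in these libraries. TraesCS2A02G329300 and TraesCS2B02G353000, putatively CLV3, and TtWUSb, a low-confidence model, had means between 0.130 and 0.885 CPM. The highest mean was that of TraesCS2A02G329300, with 0.105 to 0.199 CPM at W1 and 1.35 to 2.11 CPM at W3.0. Of 59 genes taken from the study's transcription factor network, 41 had at least 20 CPM and 0 were members, where the members make up 1.80% of the 11095 genes. The study built that network from genes it had called as changing over these same libraries, so nothing is read from this count. W1 replicate 1 stood apart from the other libraries of its stage. Its mean chi-square per gene against them was 26.1 to 31.1, against 2.77 to 8.88 in the other 27 pairs of libraries of 1 stage, with Pearson's r of log2(CPM + 0.5) between 0.975 and 0.980, against 0.986 to 0.996. Without it, the median SD of the members was 0.0527, against 0.134 over the 11095 genes.

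The members stayed within a narrow band of CPM in all 20 libraries. Their SD of log2(CPM + 0.5) ran from 0.0358 to 0.0602 with a median of 0.0549, against a median of 0.150 over the 11095 genes with at least 20 CPM. The highest of the 20 values exceeded the lowest by 1.09-fold to 1.22-fold, with a median of 1.15-fold, against a median of 1.49-fold over the 11095 genes. In 173 of the 200 members (86.5%) every library lay within 10% of the gene's mean, which held for 458 of the 11095 genes (4.13%). Just inside the limit stood TraesCS4A02G160400, TraesCS4B02G142300 and TraesCS6A02G083400 with SDs of 0.0602 each, and just outside it stood TraesCS7A02G309800, TraesCS5A02G441000 and TraesCS7A02G461800 with SDs between 0.0602 and 0.0603. The values on both sides of the limit thus differed in the fourth decimal at most.

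The lowest SD, 0.0358, belonged to TraesCS6B02G471600 (chromosome 6B, 719674986 to 719678763, IWGSC RefSeq v1.0, minus strand). Its level was 45.1, 47.6, 46.1 and 45.5 CPM in the 4 libraries at W1, 47.2, 48.3, 45.3 and 48.6 CPM at W2 and 47.8, 46.7, 46.6 and 46.8 CPM at W3.0. At W3.25 it was 45.7, 47.0, 46.4 and 47.2 CPM and at W3.5 it was 49.4, 45.4, 46.0 and 45.9 CPM. The 5 stages overlapped throughout, and the single highest library was replicate 1 of W3.5. TraesCS7A02G008900 (chromosome 7A, 3906483 to 3911596, minus strand) came next, with an SD of 0.0363. It gave 109, 104, 103 and 108 CPM at W1, 103, 104, 107 and 103 CPM at W2 and 103, 106, 104 and 103 CPM at W3.0. The later libraries gave 108, 106, 108 and 104 CPM at W3.25 and 111, 108, 103 and 102 CPM at W3.5. Here too the stages overlapped, and the 4 libraries of W3.5 included both the highest and the lowest of all 20 values.

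TraesCS2B02G362000 (chromosome 2B, 514881780 to 514885778, minus strand) followed with an SD of 0.0375, between 40.3 and 44.5 CPM over the 20 libraries, with stage means of 42.1 ± 1.04 CPM in W1, 42.6 ± 0.919 in W2, 41.3 ± 0.996 in W3.0, 41.7 ± 1.23 in W3.25 and 42.9 ± 1.05 in W3.5 (SD, n = 4 each). The next 7 by SD were TraesCS7B02G032400, TraesCS3A02G386000, TraesCS3A02G379700, TraesCS5B02G374200, TraesCS5A02G168400, TraesCS6B02G376500 and TraesCS3B02G202800, with SDs between 0.0383 and 0.0420. Among these 10 genes the range of the stage means was smallest in TraesCS7A02G008900 (0.034 log2 units) and widest in TraesCS5A02G168400 (0.088 log2 units), and TraesCS6B02G376500 overlapped another gene model. Reads that fell on both models of such an overlap were not counted, so counts of these genes lack the reads of the shared stretch.

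**Figure D1:**
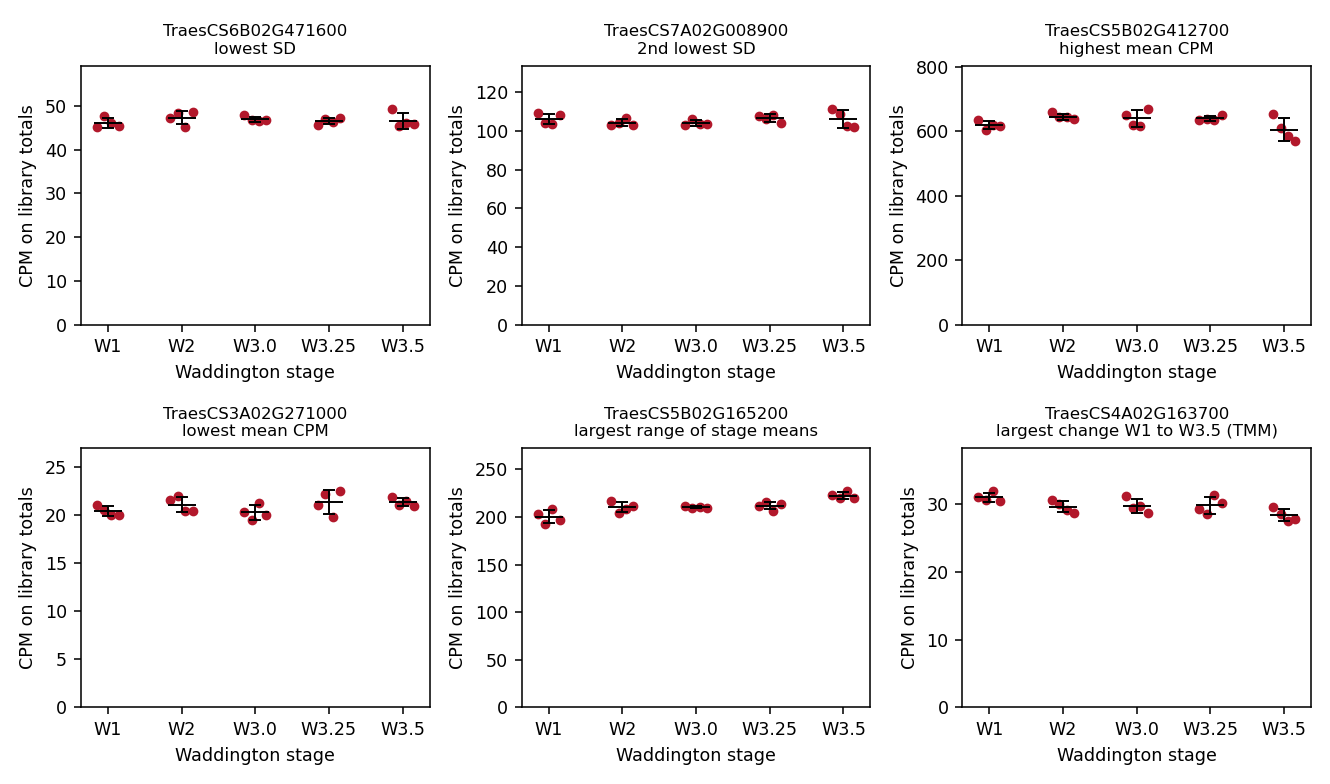
CPM on library totals (y axis, from 0) at the 5 Waddington stages (x axis) for 6 members, with 1 point per library and the mean ± SD of the 4 libraries in black. The points of each gene form a nearly level band, also for TraesCS5B02G165200, whose stage means had the widest range of all members (0.152 log2 units).

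Genes with many and with few reads were both represented. Mean read levels, which take no account of gene length, ran from 20.8 CPM in TraesCS3A02G271000 (chromosome 3A, 498246299 to 498251218) to 630.3 CPM in TraesCS5B02G412700 (chromosome 5B, 587599689 to 587602286), with a median of 65.1 CPM, against a median of 39.9 CPM over the 11095 genes. When the 11095 genes were divided into 4 groups of equal size by mean CPM, the groups held 18, 29, 60 and 93 members from the lowest group to the highest. TraesCS5B02G412700 gave 635, 604, 619 and 618 CPM at W1, 659, 644, 644 and 638 CPM at W2 and 652, 621, 618 and 670.4 CPM at W3.0. At W3.25 it gave 636, 639, 637 and 651 CPM and at W3.5 654, 610.4, 587 and 571 CPM, so the lowest value of the series was at W3.5 while replicate 1 of that stage was among the higher ones. TraesCS3A02G271000 stayed between 19.5 and 22.4 CPM, with stage means of 20.3 ± 0.504 CPM in W1, 21.1 ± 0.816 in W2, 20.2 ± 0.741 in W3.0, 21.3 ± 1.25 in W3.25 and 21.3 ± 0.436 in W3.5 (SD, n = 4 each). TraesCS5B02G374200 (chromosome 5B, 551657961 to 551663554) was the only gene named both for its level (413 CPM) and for its low SD (0.0395).

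The spread of the members was nearer to the counting error than that of other genes. A Poisson count of the observed depth would give a median SD of 0.0354 for the members, and the observed SD was 1.52 times this counting SD at the median, against 3.49 times over the 11095 genes. In 23 members, TraesCS6B02G471600 among them, the observed SD was below the counting SD, and these 23 were the only such genes of the 11095. The choice took the genes with the lowest SD, so these contrasts with the 11095 genes follow largely from it and are descriptions only. The ratio of observed to counting SD had a median of 0.929 in the members of the lowest of the 4 groups by mean CPM and of 1.95 in those of the highest. Differences in stability among genes near the counting SD were not detectable at this depth.

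**Figure D2:**
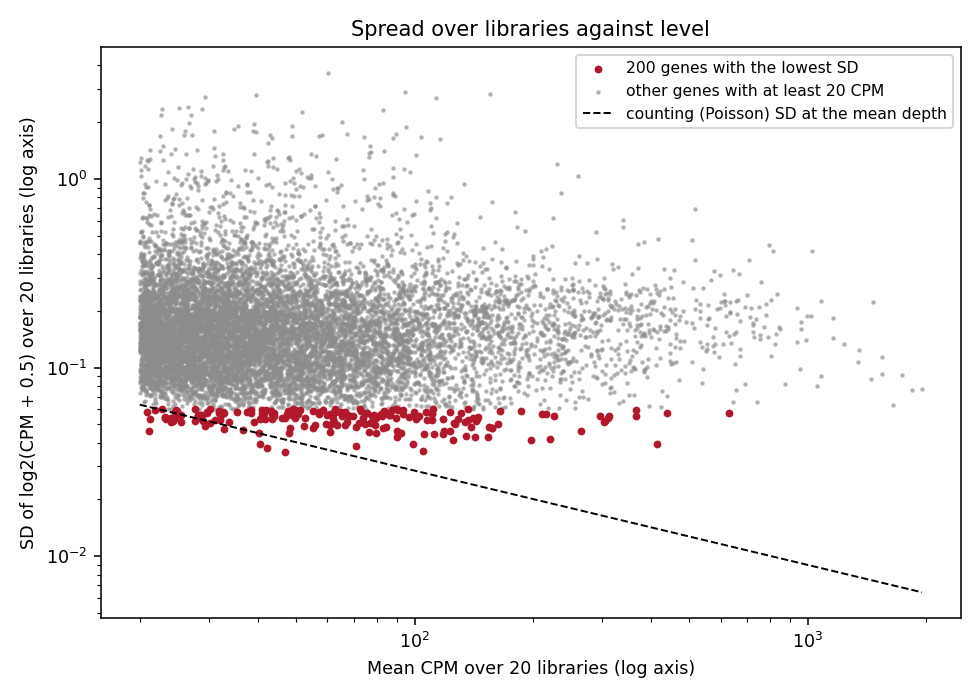
SD of log2(CPM + 0.5) over 20 libraries (y axis, log) against mean CPM (x axis, log), with 1 point per gene, the 200 members in red and the other genes with at least 20 CPM in grey. The dashed line is the counting SD at the mean depth, and 23 members, with mean levels of 20.8 to 46.7 CPM, have an SD under their own counting SD.

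Deviations within stages made up more of the total variation than differences between stage means in most members. The within-stage SD had a median of 0.049 log2 units in the members and 0.086 over the 11095 genes. Differences between stage means made up a median of 30.8% of the summed squared deviations of a member and 71.9% over the 11095 genes. Spread among the libraries of a stage also moves the stage means, so part of this share arises without a stage effect. The choice took genes with a low SD in these libraries, so the contrasts with the 11095 genes here are descriptions only. The highest stage mean fell at W1 for 45 members, W2 for 40, W3.0 for 39, W3.25 for 23 and W3.5 for 53. In percent these were 22.5%, 20%, 19.5%, 11.5% and 26.5%, against 31.7%, 9.67%, 13.5%, 8.34% and 36.8% of the 11095 genes. The range of the 5 stage means had a median of 0.080 log2 units, against 0.333 over the 11095 genes. In 154 members (77%), against 5.51% of the 11095 genes, this range was below 0.1 log2 units. It was widest in TraesCS5B02G165200 (0.152 log2 units), TraesCS5B02G265100 (0.147 log2 units) and TraesCS1B02G377800 (0.140 log2 units).

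TraesCS5B02G165200 (chromosome 5B, 305591110 to 305598672) gave 203, 192, 208 and 197 CPM at W1, 217, 204, 208 and 211 CPM at W2 and 212, 209.5, 210.0 and 209.9 CPM at W3.0. It gave 211, 215, 207 and 214 CPM at W3.25 and 223, 220.0, 227 and 219 CPM at W3.5. On library totals all 4 libraries of W3.5 were above all 4 of W1, in a member picked for the widest range of stage means. On the TMM scale, described below, it averaged 218 CPM at W1, against 211 at W3.5. In TraesCS5B02G265100 (chromosome 5B, 449128690 to 449132674) the stage that stood apart was W3.0, with 175, 180.0, 175 and 173 CPM, against 198, 191, 192 and 198 CPM at W2, and these values did not overlap. TraesCS1B02G377800 (chromosome 1B, 610165215 to 610169464) had its highest stage mean at W3.25, 93.7 ± 2.76 CPM, and its lowest at W1, 85.0 ± 2.30 CPM (SD, n = 4 each).

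Position and gene structure, which the choice did not use, were spread widely. The A genome held 97 members, the B genome 99 and the unanchored scaffolds 4, or 48.5%, 49.5% and 2%, against 51.1%, 48.2% and 0.631% of the 11095 genes. Every chromosome held between 8 (1A) and 21 (5B) members. Only 6 pairs of neighbouring members lay within 1000000 bp of each other, and the closest was TraesCS2B02G361800 and TraesCS2B02G362000 on chromosome 2B, 16299 bp apart. The gene span, from start to end with introns, had a median of 4888 bp in the members and 4718 bp over the 11095 genes. A span below 2000 bp was found in 3 members (1.5%), against 9.82% of the 11095 genes, and one above 10000 bp in 14 members (7%), against 12.7%. No test was made of these shares.

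The shortest member was TraesCS6A02G165500 (579 bp), followed by TraesCS3B02G211700 (1428 bp) and TraesCS3A02G400100 (1931 bp). The longest were TraesCS7B02G277100 (37415 bp), TraesCS4A02G163700 (31827 bp) and TraesCS6A02G196200 (20393 bp). Per length, in transcripts per 1000000 (TPM) with the span as length, the members ran from 1.90 TPM in TraesCS7B02G277100 to 617 TPM in TraesCS5B02G412700 with a median of 31.6 TPM, against 21.8 TPM over the 11095 genes. TraesCS6A02G165500, at 82.0 CPM, had 360.2 TPM over its short span. Another gene model overlapped 26 members (13%), against 10.3% of the 11095 genes.

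The correlation between members depended on the scale. On library totals, across the 20 libraries, the Pearson correlation of log2(CPM + 0.5) between 2 members had a median of 0.013 over 19900 pairs, with the 5th and 95th percentiles at -0.413 and 0.452. An absolute correlation above 0.6 was seen in 1.51% of member pairs, against 36.8% of the pairs of the 11095 genes. All pairs share the same libraries and depths, and the choice took genes with little change over the libraries, so these correlations are a description only. On the TMM scale, described below, the correlation had a median of 0.656, with the 5th and 95th percentiles at 0.402 and 0.836. The same TMM factors, which differ by stage, scale every member and give all of them a shared pattern. This value is therefore not read as members moving together. The highest correlation on library totals was 0.820 between TraesCS4B02G268200 and TraesCS4A02G035500, and the lowest was -0.852 between TraesCS2A02G012200 and TraesCS1A02G122700. Ratios between 2 of the 10 members with the lowest SD, which do not depend on the scaling of the library, had SDs between 0.0432 and 0.0759 log2 units over 45 pairs, with a median of 0.0550.

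Averages of several members were steadier than any 1 of them. The geometric mean of the 3 members with the lowest SD had an SD of 0.0185 log2 units over the 20 libraries, that of the 10 lowest 0.0129 and that of all 200 members 0.0075, against 0.0358 for TraesCS6B02G471600 alone. Its highest library exceeded its lowest by 1.06-fold with 3 members and 1.03-fold with 10 members. These averages were made from the libraries that chose the genes, and they are relative to the library total.

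To measure the genes in libraries that had no part in the choice, the rule was applied to replicates 1 and 2 of every stage alone, and the 200 genes it gave were measured in replicates 3 and 4, and the reverse. Of the 200 genes chosen on replicates 1 and 2, 37 were chosen again on replicates 3 and 4, which is 18.5% of each list, and all 37 were members. For scale, 200 genes are 1.80% of the 11109 genes with at least 20 CPM in replicates 3 and 4. The SD of the genes chosen on replicates 1 and 2 had a median of 0.0645 in replicates 3 and 4, against 0.136 over all genes with at least 20 CPM, and of 0.0509 in the replicates that chose them. In the reverse direction the median was 0.0794 in replicates 1 and 2, against 0.165 over all genes, and 0.0431 in the choosing replicates. Without W1 replicate 1, the median in the other replicates was 0.0676 for genes chosen on replicates 1 and 2, against 0.136 over all genes, and 0.0650 in the reverse direction, against 0.133. With every library, 117 (58.5%) and 116 (58%) of the chosen genes stood among the 10% of all genes with the lowest SD in the other replicates. The highest of the 10 libraries was less than 1.2-fold above the lowest in 155 (77.5%) and 103 (51.5%) of the chosen genes, against 18.5% and 9.48% of all genes.

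Single genes differed in how well they held up. In replicates 3 and 4 the SDs of the 200 genes chosen on replicates 1 and 2 ran from 0.0279 to 0.143. The highest was that of TraesCS1B02G384100, against 0.0494 in the replicates that chose it, and its stage means in replicates 3 and 4 spanned 0.246 log2 units. This gene was picked as the extreme after the values were seen.

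**Figure D3:**
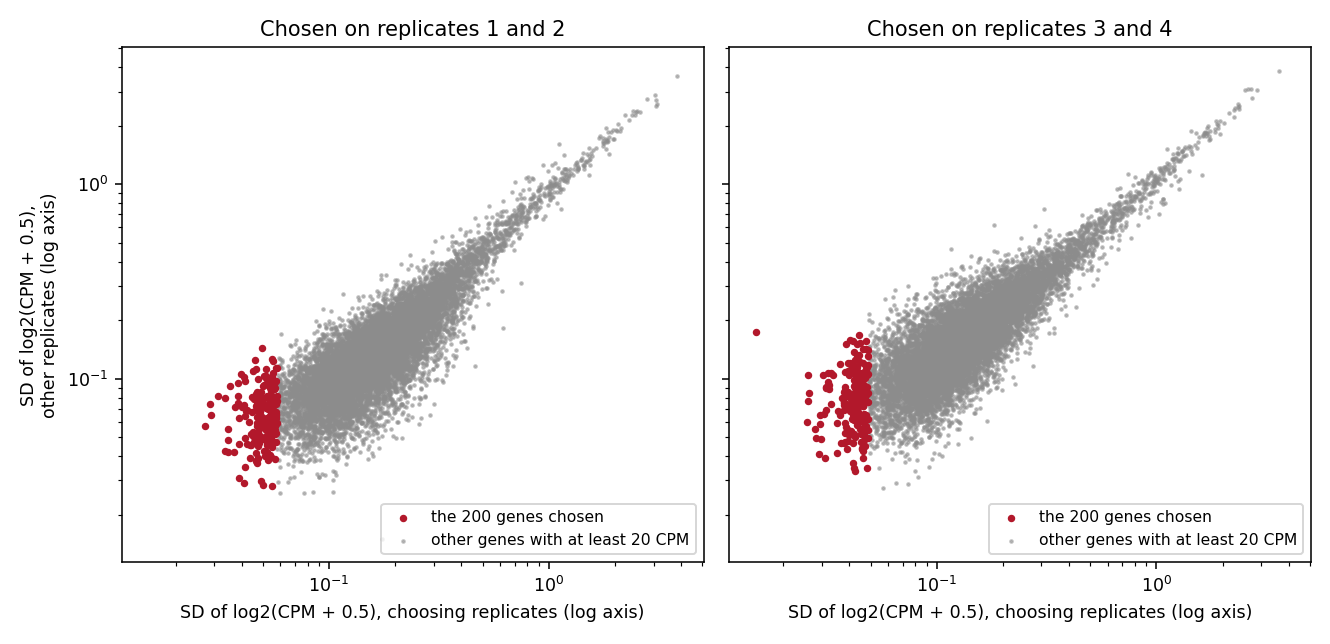
SD of log2(CPM + 0.5) over the 10 libraries of the replicates that were not used for the choice (y axis, log) against the SD in the 10 choosing libraries (x axis, log), for genes chosen on replicates 1 and 2 (left) or on replicates 3 and 4 (right). The 200 chosen genes (red) lie low on the y axis among the other genes (grey), with medians of 0.0645 and 0.0794.

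The test of change over the 5 stages was run in the replicates that were not used for the choice. It called a smaller share of the chosen genes than of all genes tested, except in the fit without W1 replicate 2. The share was smaller than over genes with at least 20 CPM in every fit, that one included. With edgeR's quasi-likelihood F test, TMM scaling (a trimmed mean of M values, which centres each library on its typical gene) and a threshold of 0.05 on the Benjamini-Hochberg adjusted p, 71 of the 200 genes chosen on replicates 1 and 2 (35.5%) changed with stage in replicates 3 and 4. The background was 47.4% of 48718 gene models tested and 62.8% of the genes with at least 20 CPM. Of the genes chosen on replicates 3 and 4, 50 (25%) changed in replicates 1 and 2, against 42.1% of 48724 gene models tested and 52.1% of those with at least 20 CPM. On library totals, the scale of the choice, the counts were 18 (9%), against 52.3% of all tested, and 7 (3.5%), against 46.3%. When choice and test both used TMM scaling, 14 and 1 of the 200 genes were called.

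These counts leaned on single libraries. The share called over all genes tested moved as well, but over a narrower range than the share of the chosen genes. In replicates 3 and 4 fewer chosen genes were called without W1 replicate 3 or without W1 replicate 4, and the share over all genes was lower as well. Leaving out a library left its stage with 1 library, which was then taken to vary like the other stages. In replicates 1 and 2 more chosen genes were called without W1 replicate 2. Their share was then larger than that of all genes tested in the same libraries. It was smaller than that of genes with at least 20 CPM. In that fit W1 was represented by replicate 1 alone, the library that stood apart. Without W1 replicate 1 the count was 56 (28%), against 40.6%. The calls in replicates 1 and 2 were fewer without W3.0 replicate 1 or 2 and without W3.5 replicate 1 or 2. In those fits the share called over all genes tested was lower too. With every library and an adjusted p of at most 0.01 the counts were 34 (17%), against 35.5% of all genes tested, and 14 (7%), against 29.5%.

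A stage was also left out of the choice and then measured. The 200 genes chosen on the other 4 stages differed from their mean over those stages by a median of 0.078 log2 units at W1, against 0.234 over all genes with at least 20 CPM. For the later stages the median was 0.040 (W2), 0.034 (W3.0), 0.027 (W3.25) or 0.051 (W3.5), against 0.076, 0.081, 0.092 and 0.135 over all genes. W1 therefore had the largest departure of the 5 left-out stages in the chosen genes, as it had over all genes. Without W1 replicate 1 it was 0.084, against 0.220 over all genes. All 4 libraries of the left-out stage lay outside the range of the other 16 in 32 of the 200 genes (16%) for W1, in 5 (2.5%) for W2, 9 (4.5%) for W3.0, 1 (0.5%) for W3.25 and 12 (6%) for W3.5. Over all genes with at least 20 CPM the share was higher than in the chosen genes for W1 (34.3%) and for W3.5 (7.30%). It was lower than in the chosen genes for W2 (1.09%), for W3.0 (1.55%) and for W3.25 (0.163%). The choice itself makes the range of the other 16 narrow in the chosen genes, so nothing is read from this contrast. The farthest at W1 was TraesCS3A02G107500, with 70.4, 73.1, 72.2 and 70.8 CPM at W1, against 50.9 to 57.7 CPM in the other 16 libraries. It is not a member.

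The stability of the members was relative to the library total. TMM factors, which were computed over the 48336 gene models tested, were between 0.890 and 0.935 for W1, 0.979 and 0.990 for W2, 1.01 and 1.03 for W3.0, 1.01 and 1.04 for W3.25, or 1.05 and 1.06 for W3.5, so the 2 scalings differed by stage. The share of all counts held by the 100 most abundant gene models of a library moved with stage as well. The W1 libraries had 8.87% to 9.74%, the W2 libraries 8.62% to 8.74%, and the W3.0 libraries 7.94% to 8.18%. The shares were 7.87% to 8.01% in the W3.25 libraries and 7.51% to 7.66% in the W3.5 libraries. Its part in the difference between the scalings was not tested.

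On the TMM scale all 200 members had a lower mean at W3.5 than at W1, against 6571 of the 11095 genes with at least 20 CPM. The highest stage mean was at W1 in 196 members, against 5449 of the 11095 genes. The choice kept the members even on library totals, where W3.5 exceeded W1 by at most 0.152 log2 units. TMM scaling lowers every gene at W3.5 relative to W1. These counts therefore follow largely from the choice and the factors, and nothing is read from them. On library totals 86 of the 200 members, against 4450 of the 11095 genes, had a lower mean at W3.5 than at W1. The median SD of the members was 0.0872 on the TMM scale, against 0.146 over the 11095 genes, and the median range of their stage means was 0.194 log2 units, against 0.318. TraesCS6B02G471600 averaged 50.1 ± 1.25 TMM-scaled CPM in W1, 48.0 ± 1.58 in W2, 46.2 ± 0.756 in W3.0, 45.2 ± 1.02 in W3.25 and 44.3 ± 1.82 in W3.5 (SD, n = 4 each), and stood at rank 651 by SD. TraesCS5B02G412700 averaged 674 ± 27.6 TMM-scaled CPM in W1, 655 ± 6.89 in W2, 629.5 ± 21.5 in W3.0, 622 ± 8.11 in W3.25 and 575 ± 34.1 in W3.5. On this scale the mean of both genes was lower at every later stage, which was not so for either gene on library totals.

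**Figure D4:**
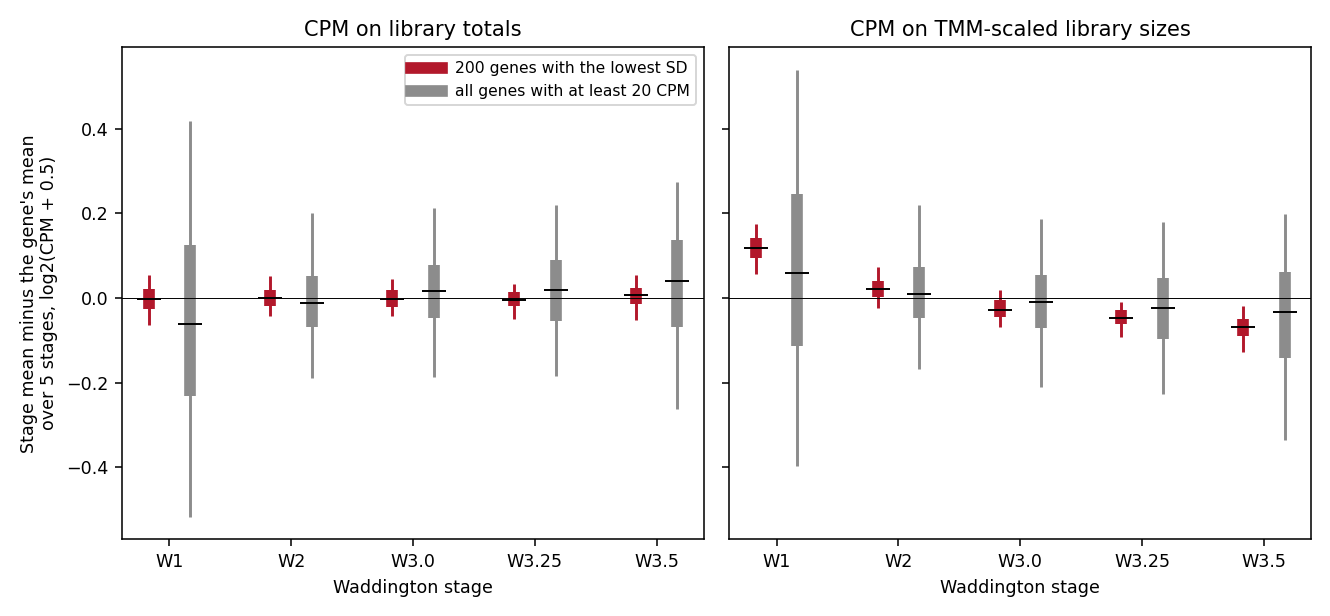
Stage mean of log2(CPM + 0.5) minus the gene's mean over the 5 stages (y axis) by Waddington stage (x axis), on library totals (left) and on the TMM scale (right), for the 200 members (red) and all genes with at least 20 CPM (grey). Black dashes are medians, thick bars the 25th to 75th percentile and thin lines the 5th to 95th, and the median of the members lies near 0 at every stage on the left and falls with stage on the right (-0.068 at W3.5, against 0.117 at W1).

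The same contrasts were tested in all 20 libraries on both scales, and since these libraries chose the members, the calls are descriptions from which nothing is read. With TMM scaling, the F test of edgeR (adjusted p, threshold 0.05) called 162 members (81%) for a change over the 5 stages. The background was 63.1% of 48336 gene models and 74.8% of the 11095 genes with at least 20 CPM. On library totals it called 9 (4.5%), against 68.5% and 77.6%. Pairwise calls needed an adjusted p of at most 0.01 from both edgeR and DESeq2 in the same direction. From W1 to W3.5, 151 members (75.5%) were called with TMM and DESeq2 size factors. The background was 49.2% of all gene models and 62.9% of genes with at least 20 CPM. All 151 were lower at W3.5 (background in that direction 26.9% of all gene models). On library totals 3 (1.5%) were called, against 55.4% and 66.0%. The 3 were TraesCS5B02G165200 and TraesCS6B02G028800, higher at W3.5, and TraesCS4A02G401100, lower at W3.5. The median log2 fold change of the members from W1 to W3.5 was -0.19 with TMM and 0.0082 on library totals, while that of all 48336 gene models was 0.023 and 0.22. The scaling thus moved both medians by the same amount.

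The comparisons of consecutive stages are given in the same way, as descriptions. From W1 to W2, 18 members (9%) were called with TMM and DESeq2 size factors. The background was 22.9% of all gene models and 34.8% of genes with at least 20 CPM. All 18 were lower at W2 (background in that direction 14.6% of all gene models). On library totals 0 were called, against 24.6% and 35.5%, and 9 had an unadjusted edgeR p under 0.05. From W2 to W3.0, 2 were called (background 19.2%), TraesCS5B02G265100 and TraesCS1B02G123200, both lower at W3.0 (background in that direction 11.6%), and only TraesCS5B02G265100 on library totals (background 19.6%). From W3.0 to W3.25, 0 members were called on either scale, with 6 and 4 at an unadjusted edgeR p under 0.05. The backgrounds were 0.821% and 0.825% of all gene models, and 0.937% of genes with at least 20 CPM on both scales. From W3.25 to W3.5 the count was also 0 on both scales, with 7 and 4 at an unadjusted edgeR p under 0.05. The backgrounds were 0.701% and 0.672% of all gene models, and 1.09% and 0.964% of genes with at least 20 CPM. DESeq2 alone called 47 from W1 to W2, 6 from W2 to W3.0 and 0 in either of the last 2 comparisons.

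The largest changes of single members depended on the scale as well. With TMM scaling, the member with the largest change from W1 to W3.5 was TraesCS4A02G163700 (chromosome 4A, 371765032 to 371796858), which another gene model overlapped. It had 29.6, 28.5, 27.5 and 27.9 CPM on library totals at W3.5, against 31.1, 30.6, 31.9 and 30.5 CPM at W1, without overlap. Its log2 fold change was -0.33 ± 0.050 (SE, edgeR) with TMM and -0.13 ± 0.049 on library totals. On library totals the largest was in TraesCS5B02G165200, at 0.15 ± 0.038, against -0.05 ± 0.042 with TMM. From W1 to W2 the largest with TMM was in TraesCS1B02G280700 (chromosome 1B, 489131201 to 489134457), with 61.1, 60.7, 59.1 and 57.2 CPM at W2, against 64.6, 64.5, 66.1 and 64.6 CPM at W1. Its log2 fold change was -0.23 ± 0.043 with TMM and -0.13 ± 0.043 on library totals. In TraesCS5B02G265100, the largest from W2 to W3.0 with TMM, it was -0.19 ± 0.043 with TMM and -0.15 ± 0.040 on library totals.

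Of the changes to the rule that were tried, the scale moved the list most. With TMM-scaled CPM in the rule 15 of the 200 members were chosen again, and with DESeq2 size factors 11, all of which were among the 15. The TMM list and the DESeq2 list shared 182 genes with each other. The genes of the TMM list had, on library totals, a median change of 0.19 log2 units from W1 to W3.5. The 15 included TraesCS6B02G028800, TraesCS5B02G165200 and TraesCS2A02G263400, which stood at ranks 14, 16 and 18 by SD on the TMM scale. TraesCS5B02G165200 averaged 211 ± 3.47 TMM-scaled CPM at W3.5, against 218 ± 10.1 at W1, so the member with the widest range of stage means on library totals was one of the steadiest on the TMM scale.

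Other parts of the rule mattered less. Pseudocounts of 0.1 and 2 kept 197 and 191 members, a minimum of 10 CPM kept 197, and ranking by the coefficient of variation kept 191. A minimum of 50 CPM kept 125, ranking by spread beyond the counting error 122, by the SD of the 5 stage means 71 and by the median absolute deviation 68. TPM in place of CPM kept 97. Leaving out all of W1 kept 81 members, and leaving out any other stage kept 140 to 161. Of the 20 libraries left out in turn, W1 replicate 1 changed the list most, with 121 members kept, and the others kept up to 189. Allowing low-confidence models brought in 2 of them.

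**Figure D5:**
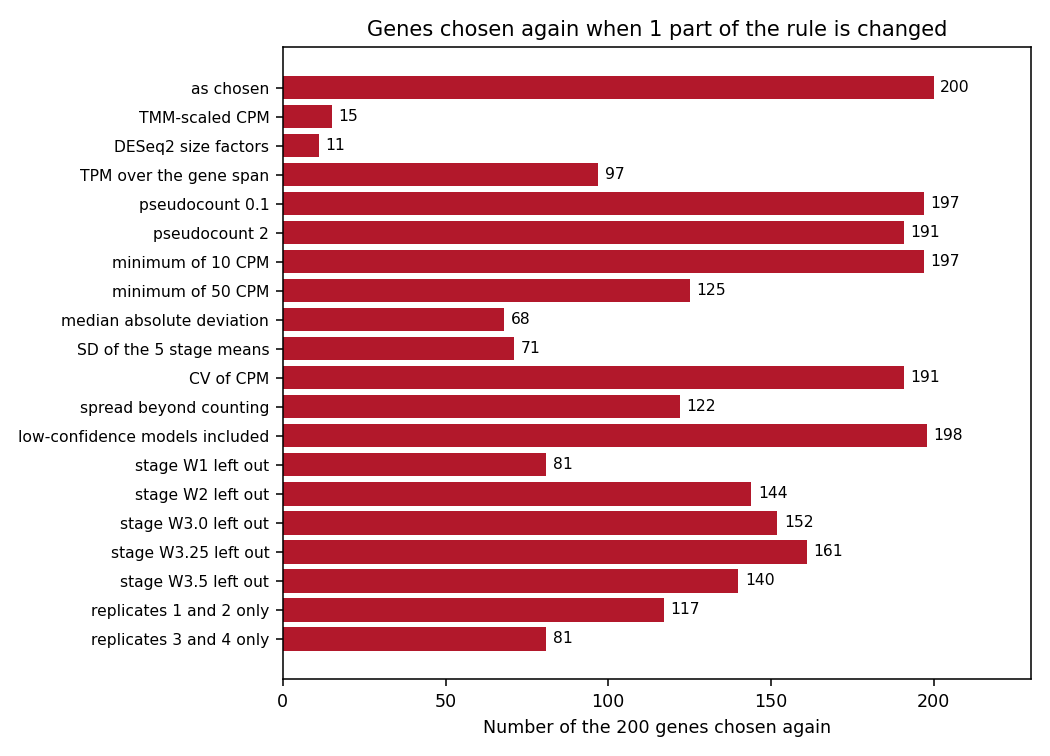
Number of the 200 members chosen again (x axis, from 0) when 1 part of the rule is changed (y axis), with 1 bar per change and its count at the end of the bar. The shortest bars are those of the DESeq2 size factors (11) and TMM-scaled CPM (15).

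When the 200 members themselves were used to scale the libraries, the number of differentially expressed gene models changed little and their direction changed more. With the members as scaling genes, the 4 consecutive comparisons called 11754, 9462, 406 and 314 gene models in the order of development, against 11056, 9284, 397 and 339 with TMM and DESeq2 size factors. Of the calls from W1 to W2, 59.1% were higher at W2 with the members as scaling genes, against 36.3% with TMM. From W1 to W3.5 the share higher at W3.5 was 65.4%, against 45.4%. Library totals gave 60.2% and 66.0%, close to the values with the members, which were chosen to be even on that scale.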

How the data were processed

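RNA was sequenced from pooled apices in 20 libraries, 4 at each of 5 Waddington stages, sequenced as 100 bp single ends. Before deposit, the authors ran Fastp for trimming and STAR 2.7.5 for alignment to the A, B and unanchored sequences of IWGSC RefSeq v1.0, then counted uniquely mapped reads over the whole span of each gene model of annotation v1.1 with featureCounts 2.0.0 at a mapping quality of at least 40. The deposited values are raw read counts per gene model, without normalization and, per the file header, without use of strand or of reads that overlap more than 1 gene model. The other deposited column used here is the gene span in bp. The 79047 D genome models in the table hold 0 counts and were left out. Counting whole spans includes introns, which lowers TPM of long genes.

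CPM used library totals, 22229388 to 29655553 counts. The choice, spreads, overlaps and left-out stages were computed in Python 3.11.15 with pandas. Tests were run in R 4.3.3 with edgeR 4.0.16 (filterByExpr with a minimum count of 10, TMM, quasi-likelihood tests) and DESeq2 1.42.0 (Wald tests), with Benjamini-Hochberg adjustment over 48336 gene models, or 48718 and 48724 with 10 libraries. All 20 libraries shared 1 fit with stage as factor (15 residual degrees of freedom), and the fits of 10 libraries had 5. The scripts were tested on simulated data. ImpulseDE2, which the study used over time, was not run. The libraries were taken as separate pools, as the study describes them, and no 2 libraries of a stage agreed within counting noise.

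The members and the lists were chosen with earlier results of these data known. Named genes are the 10 members with the lowest SD, the 5 with the highest and the 5 with the lowest mean CPM, the 3 on each side of the limit, the 3 longest and 3 shortest, the 3 with the widest range of stage means, and the member with the largest change in each comparison with a call. Other genes were named after their values were seen, and named-rule genes not described singly lie within the ranges given. Alternatives changed the scaling, filter, tool, threshold, pseudocount, minimum CPM, measure of spread, libraries and replicate block.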

Additional observations from a re-analysis of the deposited data

Results flagged for a closer look

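Among 100 groups of 4 libraries of 1 stage (CPM of 19 described members at 5 stages, and the TMM factors), 7 had a library far from the other 3, and chance alone gives about 1 in 20 such groups. TraesCS6B02G471600 had 47.8 CPM in W3.0 replicate 1, against 46.6 to 46.8 in the other 3 libraries, and 49.4 CPM in W3.5 replicate 1, against 45.4 to 46.0. TraesCS7B02G032400 had 73.6 CPM in W2 replicate 4, against 68.7 to 69.0. TraesCS5B02G374200 had 444.3 CPM in W3.25 replicate 2, against 406.0 to 410.0. TraesCS1B02G280700 had 66.1 CPM in W1 replicate 3, against 64.5 to 64.6, and 64.0 CPM in W3.25 replicate 1, against 60.4 to 60.6. TraesCS7B02G277100 had 26.4 CPM in W3.25 replicate 3, against 27.5 to 27.7, the single low value of the 7.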

How the results depend on the processing

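Scaling, the counting limit and single libraries bound these results. The members are stable relative to library totals, and no measure of absolute RNA per apex was used here. Members with a mean under 27.4 CPM had spreads near the counting error. Members with an SD under the counting SD reached a mean of 46.7 CPM, in TraesCS6B02G471600. Members with spreads near the counting error cannot be ranked against each other. Leaving out W1 replicate 1, tried after the data were seen, moved the median SD of the members from 0.0549 to 0.0527. For genes chosen on replicates 3 and 4 it moved from 0.0794 to 0.0650 in replicates 1 and 2, and over all genes there from 0.165 to 0.133. For genes chosen on replicates 1 and 2 it moved from 0.0645 to 0.0676 in replicates 3 and 4. Without this library 121 of the 200 members were chosen again. Calls of a change over the 5 stages in all 20 libraries (162 members) became 9 on library totals and 107 without a filter on low counts. From W1 to W3.5 the 151 calls became 3 on library totals, 89 without the filter, 68 with only these 2 stages in the fit and 0 with a 2-fold minimum. From W1 to W2 the 18 calls became 0 on library totals, 28 with DESeq2 size factors in edgeR, 3 without the filter, 47 with DESeq2 alone, 1 with only 2 stages in the fit and 0 with a 2-fold minimum. From W2 to W3.0 the 2 calls became 1 on library totals, 1 with DESeq2 size factors, 1 without the filter, 6 with DESeq2 alone and 0 with a 2-fold minimum. The cause was not tested.

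In replicates not used for the choice, the 71 and 50 calls became 18 and 7 on library totals, 34 and 14 at an adjusted p of 0.01, and 14 and 1 when the choice used TMM. With 1 library left out they ranged from 30 to 79 and from 22 to 109. With 1 of the 20 libraries left out, calls over the 5 stages ranged from 140 to 163, from W1 to W2 from 4 (without W2 replicate 2) to 17, from W2 to W3.0 from 1 to 5, from W1 to W3.5 from 119 to 150, and members kept from 121 to 189. Other rules kept 15 (TMM), 11 (DESeq2 size factors), 97 (TPM), 125 (50 CPM), 68 (median absolute deviation), 71 (SD of stage means), 122 (beyond counting), 81 (W1 left out), 117 (replicates 1 and 2 only) and 81 members (replicates 3 and 4 only).

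Equal replicate numbers did not pair the libraries, since 10 of 40 pairs of equal number had a correlation of deviations above 0.1 (median -0.0083). As a replicate block, the number gave 153 calls over the 5 stages, 143 from W1 to W3.5, 13 from W1 to W2 and 1 from W2 to W3.0, and 76 and 44 in the replicates not used for the choice, and 6 of 20 libraries correlated best with their own number.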
